A study of Mus musculus with 15 samples.

Results

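Keratins are the intermediate filament proteins of epithelial cells, and 40 keratin genes were measured in the colon of *Il10*-/- and C57 mice. The genes were taken by name, as every gene on the array whose symbol is Krt followed by a number, with the keratin-associated proteins left out. The family itself was chosen with earlier results of these data known. They were read by 48 features (spots of the array) and stand among 19076 genes tested. The 40 genes comprised 6 keratins of simple epithelia, 16 of stratified epithelia such as skin and esophagus, and 18 of hair follicles and other sites.

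Colon RNA of 15 male mice was analysed, with 1 mouse on each array: 4 C57 and 3 *Il10*-/- mice at 7 weeks of age, and 4 C57 and 4 *Il10*-/- mice at 12 weeks of age. C57 mice were C57BL/6J and *Il10*-/- mice were B6.129P2-Il10<tm1Cgn>/J, which lack interleukin-10 in every cell. Mice of both genotypes, controls included, had been inoculated by mouth with *Enterococcus* strains and a complex intestinal flora soon after arrival. According to the study's methods, the older *Il10*-/- mice had moderate colitis and the other groups none, and younger *Il10*-/- mice that were already inflamed were left out of the arrays, so that group was selected on histology. The tissue was colon with its muscle layer, so that fewer epithelial cells and less RNA per epithelial cell cannot be told apart in any value below. The value of a gene is the log2 ratio of its signal in the colon to its signal in a pool of RNA from several mouse organs and fetuses. A value of 0 therefore means as much signal in the colon as in the pool, and the level of a gene cannot be set against that of another gene. Genes of the liver, an organ of the pool, had array medians of −4.09 to −3.06 (9 genes), as a ratio with colon in the numerator gives. *Il10* itself ranged from −0.17 to 0.25 and differed between genotypes by 0.14 ± 0.08 at 7 weeks and 0.13 ± 0.08 at 12 weeks (log2 difference ± SE, neither past the thresholds), and whether its feature reads the deleted sequence is not known.

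A keratin filament is built from pairs of an acidic type I and a basic type II protein, and a cell type is marked by the pairs it makes. Columnar cells of the intestine make the type II protein keratin 8 (*Krt8*, and in some cells *Krt7*) with the type I proteins keratin 18, 19 and 20. *Krt20* marks the differentiated cells near the mouth of the crypt. *Krt5* and *Krt14* form the filaments of the basal layer of stratified epithelia, and *Krt6a*, *Krt6b*, *Krt16* and *Krt17* are known as keratins of wounded or activated epidermis. In the mouse genome the type I genes lie in a cluster on chromosome 11 and the type II genes in a cluster on chromosome 15, where *Krt18* is the only type I gene, beside *Krt8*.

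The 100 bases before the start of 4 simple keratin genes are shown because these genes stand for both clusters and 2 of them, *Krt7* and *Krt23*, were both lower in *Il10*-/- mice at 7 weeks. They were taken from RefSeq in build GRCm38.p6, at chr15:101412303-101412402 on the plus strand for *Krt7*, chr15:102028116-102028215 on the plus strand for *Krt18*, chr11:99438154-99438253 on the minus strand for *Krt20* and chr11:99493121-99493220 on the minus strand for *Krt23*, each written 5′ to 3′ on the strand of its gene. Capitals mark a GC box (GGGCGG, here in its reverse complement) or a TATA box (TATAAA), each searched on both strands.
Krt7: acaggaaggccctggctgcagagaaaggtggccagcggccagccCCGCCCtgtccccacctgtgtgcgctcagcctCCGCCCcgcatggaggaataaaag
Krt18: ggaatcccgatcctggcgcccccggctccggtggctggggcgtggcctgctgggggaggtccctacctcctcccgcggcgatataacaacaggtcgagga
Krt20: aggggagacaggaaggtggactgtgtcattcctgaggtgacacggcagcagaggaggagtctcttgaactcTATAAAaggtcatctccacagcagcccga
Krt23: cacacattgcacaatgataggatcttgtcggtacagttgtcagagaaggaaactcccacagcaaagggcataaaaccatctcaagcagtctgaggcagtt
The *Krt7* window held the GC box at 2 places and no TATAAA, and the *Krt20* window held TATAAA close to the start. Neither motif was found in the windows of *Krt18* and *Krt23*, so that *Krt7* and *Krt23* shared neither. Of the 40 keratin genes, 26 had a window in the RefSeq table, and 11 of these (42.3%) held TATAAA, against 5.56% of all 32851 windows of the same length. GGGCGG was found in 2 of the 26 (7.69%), *Krt7* and *Krt75*, against 24.7% of all windows, and CCAAT, also searched on both strands, in 3 (11.5%) against 18.9%. A match of letters is a description of the window and not a binding site.

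The RNA of the main simple keratin of the colon could not be compared between the groups on these arrays. On every array between 73 and 149 features held exactly the same ratio, while the next commonest ratio was held by 3 to 5 features. Both features of *Krt8* held this shared value on all 15 arrays, and the feature of *Krt20* held it on 11 of 15. The ratios of *Krt8* were thus those of the array and not of the gene: 0.36, 0.01, 0.18 and 0.07 in the 7-week-old C57 mice, −0.12, −0.21 and 0.10 in the 7-week-old *Il10*-/- mice, −0.47, 0.04, 0.12 and 0.40 in the 12-week-old C57 mice, and 0.02, −0.11, −0.02 and 0.03 in the 12-week-old *Il10*-/- mice. They ran through the groups with no gap between genotypes. Where *Krt20* was off the shared value it stayed beside it, as at 0.12 against 0.07 and 0.44 against 0.40 in a C57 mouse of each age. There were 88 features at the shared value on 12 arrays or more, and of the 69 among them that name a gene 26 read ribosomal protein genes, which are abundant in every tissue. Signal intensities were not in the values used here, so whether these features were saturated was not tested. The fitted differences of *Krt8* (−0.23 ± 0.15 at 7 weeks and −0.04 ± 0.14 at 12 weeks) and of *Krt20* (−0.24 ± 0.15 and −0.06 ± 0.14) were therefore not read as differences of these genes.

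*Krt7*, *Krt18*, *Krt19* and *Krt23* were off the shared value on all arrays. *Krt7* and *Krt19* were above 0 in every mouse, *Krt18* was above 0 in every mouse with a value, and *Krt23* was above 0 in all but 2 mice. Their differences between genotypes were all negative at 7 weeks, from −0.68 to −0.07, and of both signs at 12 weeks. At 7 weeks *Krt23* was lower in *Il10*-/- mice and *Krt7* was lower by less than the fold threshold, while *Krt18* and *Krt19* differed by less than 0.1 on the log2 scale. At 12 weeks none of the 4 differed past the thresholds.

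*Krt23* encodes a type I keratin that lies beside *Krt20* in the genome. Its log2 ratios were 0.64, 1.09, 0.80 and 0.80 in the 7-week-old C57 mice and 0.18, 0.10 and 0.17 in the 7-week-old *Il10*-/- mice. Every C57 mouse was above every *Il10*-/- mouse at this age. At 12 weeks the C57 mice had 0.57, 0.33, 0.17 and −0.08 and the *Il10*-/- mice −0.03, 0.27, 0.17 and 0.27. Here the genotypes overlapped, and the C57 mice lay below all C57 mice of 7 weeks. *Krt23* was lower by 0.68 ± 0.13 in *Il10*-/- than in C57 mice at 7 weeks (past the fold threshold, adjusted p = 0.00387) and differed by −0.08 ± 0.12 at 12 weeks (adjusted p = 0.77). Within C57 mice it fell by 0.59 ± 0.12 from 7 to 12 weeks (adjusted p = 0.0278), a fold of 1.501 that was barely past the threshold of 1.5 and a call that was lost when any of 6 C57 mice was left out (adjusted p of 0.0533 to 0.103 without mouse 44, 45, 46, 64, 65 or 66), and within *Il10*-/- mice the change was 0.02 ± 0.13. The 12-week minus 7-week difference between genotypes was 0.60 ± 0.18 with an adjusted p of 0.0899, so the ages were not shown to differ.

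*Krt7* is a type II keratin of ducts and of other simple epithelia. Its ratios were 1.01, 1.16, 1.08 and 1.31 in the 7-week-old C57 mice and 0.69, 0.69 and 0.42 in the 7-week-old *Il10*-/- mice, without overlap. They were 1.04, 0.78, 0.65 and 0.35 in the 12-week-old C57 mice and 0.86, 0.95, 0.59 and 0.95 in the 12-week-old *Il10*-/- mice, which overlapped. The difference at 7 weeks was −0.54 ± 0.14 (adjusted p = 0.0216) and at 1.45-fold it was below the fold threshold of 1.5. Both *Krt7* features gave it, at −0.57 ± 0.15 and −0.51 ± 0.13 (adjusted p = 0.032 for each in a fit of all features). The difference passed the fold threshold without *Il10*-/- mouse 75 (−0.59, adjusted p = 0.0366) or mouse 77 (−0.59, adjusted p = 0.0424), and its adjusted p rose to 0.121 without mouse 78 (−0.45). At 12 weeks the difference was 0.13 ± 0.13. The difference between ages was 0.67 ± 0.18 (adjusted p = 0.0707), and within C57 mice *Krt7* differed by −0.44 ± 0.13 from 7 to 12 weeks (adjusted p = 0.13).

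*Krt18* pairs with *Krt8*. It had values of 0.32, 0.53, 0.47 and 0.80 in the 7-week-old C57 mice, and 0.43 and 0.46 in the 7-week-old *Il10*-/- mice, of which mouse 75 had no value. At 12 weeks it had 0.74, 0.42, 0.30 and 0.17 in C57 and 0.55, 0.67, 0.40 and 0.68 in *Il10*-/- mice. The genotypes overlapped at both ages. The difference was −0.09 ± 0.14 at 7 weeks (95% CI −0.39 to 0.22, with mouse 75 missing from the fit) and 0.17 ± 0.12 at 12 weeks (95% CI −0.08 to 0.42).

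*Krt19* is a short type I keratin found in many glandular epithelia. Its values were 1.03, 0.62, 0.94 and 0.73 in C57 and 0.74, 0.49 and 1.05 in *Il10*-/- mice of 7 weeks. At 12 weeks they were 0.65, 1.15, 1.27 and 1.402 in C57 and 0.62, 0.72, 0.98 and 0.87 in *Il10*-/- mice. At 12 weeks 3 of the 4 C57 mice were above all *Il10*-/- mice, and the C57 mouse at 0.65 lay among them. That C57 mouse (mouse 63) was on the array with the lowest shared value (−0.47). The difference was −0.07 ± 0.17 at 7 weeks (95% CI −0.42 to 0.28) and −0.32 ± 0.15 at 12 weeks (95% CI −0.65 to 0.005, adjusted p = 0.23).

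**Figure D1:**
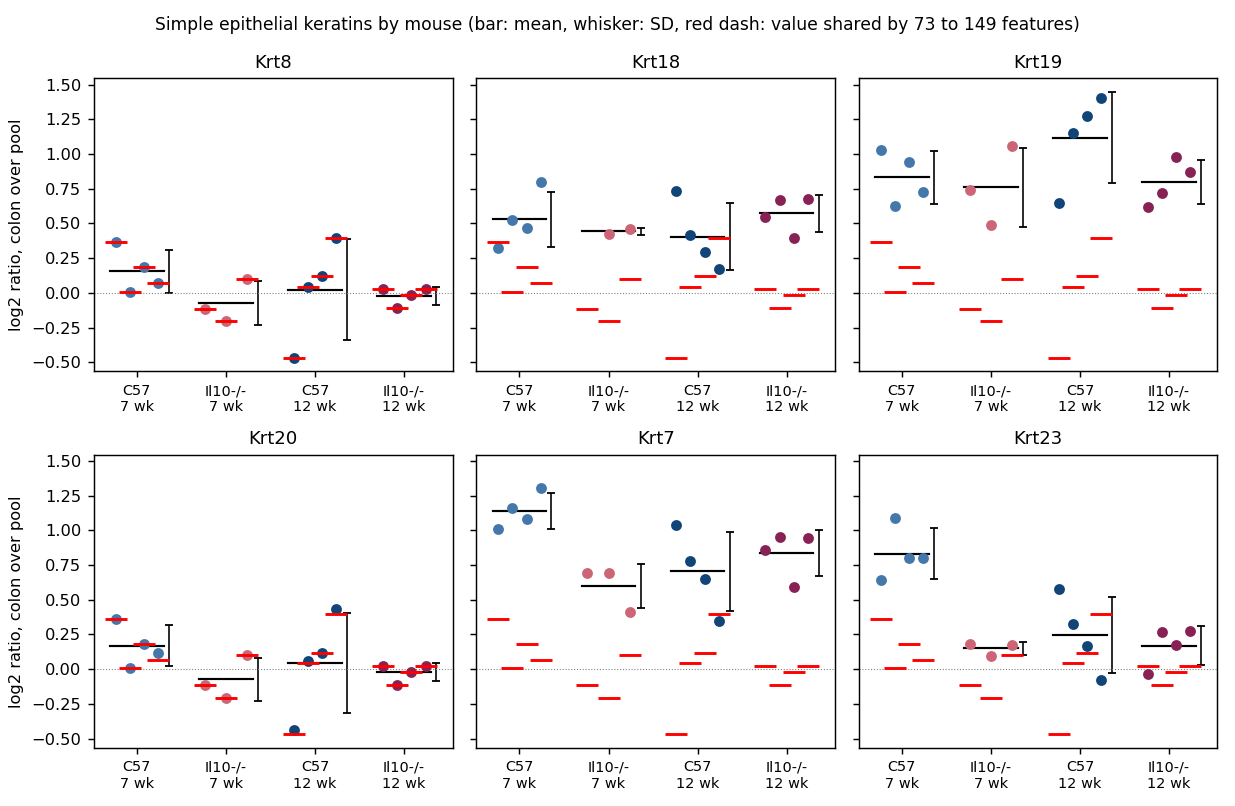
Log2 ratio of colon over pool (y axis) of the 6 simple epithelial keratins in each of the 15 mice, by group (x axis); bars are group means, whiskers SD, and red dashes the value shared by 73 to 149 features on the same array. *Krt8* lies on the dashes in all mice and *Krt20* on or beside them, whereas *Krt7* and *Krt23* of the 7-week-old C57 mice lie above those of the 7-week-old *Il10*-/- mice.

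Within groups, some keratins varied with the shared value of the array, most plainly in the 12-week-old C57 mice. The 12-week-old C57 mouse with the lowest shared value of all 15 (mouse 63, −0.47) had the highest *Krt7*, *Krt18* and *Krt23* of its group and the lowest *Krt19*. The C57 mouse with the highest (mouse 66, 0.40) had the lowest *Krt7*, *Krt18* and *Krt23* and the highest *Krt19*. *Krt16*, a keratin of stratified epithelia described below, fell from 1.06 to 0.92, 0.56 and 0.25 as the shared value rose from mouse 63 to mouse 66. Mice 63 and 66 also had the lowest weights of the 15 in the fit with array weights (0.53 and 0.64). In the 12-week-old *Il10*-/- mice, whose shared values lay between −0.11 and 0.03, no such order was seen. With the shared value as a covariate in the fit, which was added after seeing the data, the slope was 1.00 ± 0.16 for *Krt19* (adjusted p = 0.00504), −0.76 ± 0.15 for *Krt7* (adjusted p = 0.023) and −0.70 ± 0.16 for *Krt23* (adjusted p = 0.0383), and −0.63 ± 0.16 for *Krt18* (adjusted p = 0.0803). *Krt8* and *Krt20*, at or beside the shared value, had slopes of 1.00 ± 0.07 and 0.99 ± 0.07. *Krt16* had a slope of −0.67 ± 0.22 (limma adjusted p = 0.16). Slopes past an adjusted p of 0.05 were found for 5 of the 40 keratins, *Krt8* and *Krt20* among them, and for 1.84% of all genes. At an unadjusted p under 0.05 there were 13 keratins, against 15.5% of all genes. In that fit *Krt7* at 7 weeks differed by −0.72 (adjusted p = 3.17e-04) and *Krt23* by −0.84 (adjusted p = 1.55e-04), and the differences between ages passed both thresholds, at 0.82 for *Krt7* (adjusted p = 0.00342) and 0.74 for *Krt23* (adjusted p = 0.00728). *Krt19* at 12 weeks then differed by −0.28 (adjusted p = 0.0391, below the fold threshold). What sets the shared value was not tested.

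Markers of other epithelial cells were set beside these values. The mean ratio of 13 pan-epithelial genes was 0.82 to 0.86 in C57 and 0.85 to 0.91 in *Il10*-/- mice at 7 weeks, the age at which *Krt23* was lower. At 12 weeks it was 0.87 to 1.09 in C57 and 0.77 to 0.85 in *Il10*-/- mice. Of the 13 genes 1 rose at 7 weeks, *Elf3* (a transcription factor of epithelia, 0.70 ± 0.09, adjusted p = 1.97e-04), and none passed both thresholds at 12 weeks. Below the fold threshold, *Cdx2* (−0.57 ± 0.11, limma adjusted p = 0.00369), *Cldn7* (−0.45 ± 0.13, adjusted p = 0.0377) and *Tspan8* (−0.42 ± 0.11, adjusted p = 0.0283) were lower at 12 weeks. *Elf3* was higher there (0.38 ± 0.09, adjusted p = 0.00928). The median difference of the 13 genes was 0.07 at 7 weeks and −0.12 at 12 weeks. The mean of 8 enteroendocrine and tuft cell genes was 0.59 to 0.71 in the 7-week-old C57 mice and 0.09 to 0.13 in the 7-week-old *Il10*-/- mice, and it overlapped at 12 weeks (−0.12 to 0.53 and −0.04 to 0.41). *Chga* and *Chgb*, the granins of enteroendocrine cells, differed by −1.76 ± 0.32 (adjusted p = 0.00292) and −1.78 ± 0.46 (adjusted p = 0.024) at 7 weeks, both past the thresholds. These 2 genes carried most of the gap in the list mean, since the median difference of the 8 genes at 7 weeks was −0.11, no other member passed the thresholds, and the tuft cell genes *Dclk1*, *Trpm5*, *Avil* and *Pou2f3* differed by −0.11 ± 0.06, −0.10 ± 0.08, −0.08 ± 0.10 and −0.10 ± 0.07. The part of enteroendocrine cells in the *Krt7* and *Krt23* values was not tested. The means of 7 goblet cell genes overlapped between genotypes at both ages (0.53 to 0.74 and 0.40 to 0.56 at 7 weeks, 0.18 to 0.51 and 0.28 to 0.59 at 12 weeks). These means include genes at the shared value, *Zg16* on all 15 arrays and *Clca1* on 3 among the goblet genes, and *Lgals4* on 14 and *Vil1* on 3 among the pan-epithelial genes.

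Among all 40 keratins, 2 passed the thresholds at 7 weeks (at least 1.5-fold, with an adjusted p under 0.05 in limma), 1 higher (*Krt6a*) and 1 lower (*Krt23*) in *Il10*-/- mice. This is 5% of the keratins, where 2.42% of all genes tested passed (1.4% higher, 1.01% lower). At any fold 3 keratins had an adjusted p under 0.05 (7.5%), against 8.2% of all genes. At an unadjusted p under 0.05 there were 7 keratins, against 21.2% of all genes. The median keratin difference was −0.06 (−0.01 over all genes), and 36 of 40 lay within 0.25 of 0. The groups did not overlap for 7 keratins (17.5%), against 23.1% of all genes. At 12 weeks 1 of 40 (2.5%) passed, *Krt16*, which was lower, against 2.52% of all genes (1.5% higher, 1.02% lower). At any fold 3 keratins had an adjusted p under 0.05, against 10.1% of all genes. There 5 keratins had an unadjusted p under 0.05, against 22.9% of all genes, and 3 (7.5%) did not overlap between the groups, against 13.5%. The median keratin difference was −0.004 and 35 of 40 lay within 0.25 of 0. At the shares of all genes, about 1 of 40 keratins would pass at either age.

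**Figure D2:**
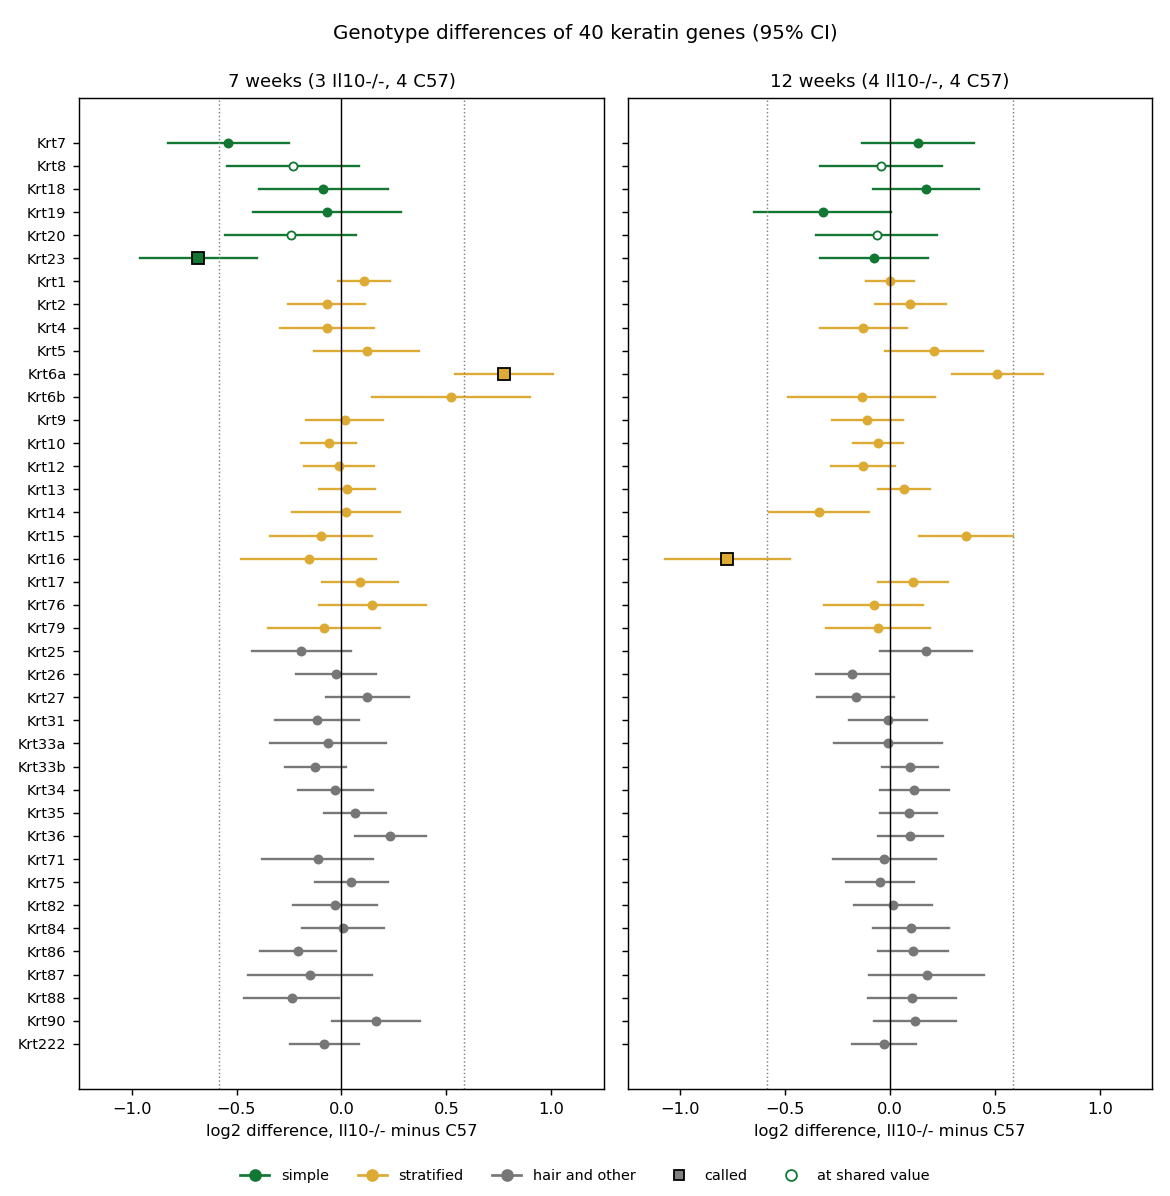
Log2 difference between *Il10*-/- and C57 mice (x axis, point and 95% CI) for each of the 40 keratin genes (y axis) at 7 and at 12 weeks, coloured by class; squares mark genes past both thresholds, open circles genes at the shared value, and dotted lines a fold of 1.5. *Krt6a* and *Krt23* stand out at 7 weeks and *Krt16* at 12 weeks, and most other keratins lie within 0.25 of 0.

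Keratins of stratified epithelia mostly had ratios near 0. Their medians over the 15 mice were −0.22 to 0.44, and 13 of the 16 lay within 0.25 of 0. Without intensities, a level equal to the pool cannot be told from little signal in both colon and pool. *Krt13*, a keratin of the lining of mouth and esophagus, and *Krt14* were above 0 in every mouse. For *Krt13* this holds on average over its features, of which the lower ran from −0.06 to 0.32. In this class *Krt6a* was higher in *Il10*-/- than in C57 mice at 7 weeks, *Krt16* was lower at 12 weeks, and no other gene passed both thresholds between genotypes.

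*Krt6a* is a type II keratin that epidermis makes after wounding. Its ratios were −0.08, −0.15, −0.02 and −0.15 in C57 and 0.47, 0.91 and 0.64 in *Il10*-/- mice at 7 weeks. At 12 weeks they were −0.04, −0.22, −0.02 and −0.12 in C57 and 0.37, 0.15, 0.65 and 0.48 in *Il10*-/- mice. All 8 C57 mice were below 0 and all 7 *Il10*-/- mice above 0. *Krt6a* rose by 0.77 ± 0.11 at 7 weeks (1.71-fold, adjusted p = 3.77e-04). At 12 weeks the difference was 0.51 ± 0.10 (adjusted p = 0.00354), which at 1.42-fold was below the fold threshold. Without *Il10*-/- mouse 94, which was the lowest of its group at 0.15, it was 0.60 and passed (adjusted p = 0.0010). The difference between the ages was −0.26 ± 0.15 (adjusted p = 0.40).

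*Krt6b* lies beside *Krt6a* and encodes a nearly identical protein, so that the features of these genes may share signal. Its ratios were −0.35, 0.27, 0.13 and 0.10 in C57 and 0.62, 0.52 and 0.53 in *Il10*-/- mice at 7 weeks, without overlap. At 12 weeks they were 0.33, 0.37, 0.83 and 0.72 in C57 and 0.01, 0.32, 0.54 and 0.83 in *Il10*-/- mice, so that the C57 mice were then as high as the *Il10*-/- mice. The differences were 0.52 ± 0.18 at 7 weeks (adjusted p = 0.0882) and −0.14 ± 0.16 at 12 weeks (adjusted p = 0.68). *Krt6b* passed the thresholds at neither age, and its difference was not tested against that of *Krt6a*.

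*Krt16* is the type I partner of keratin 6 in epidermis. Its ratios were 0.17, 0.09, −0.11 and 0.05 in C57 and −0.11, −0.06 and −0.15 in *Il10*-/- mice at 7 weeks, which overlapped. At 12 weeks they were 1.06, 0.92, 0.56 and 0.25 in C57 and 0.17, −0.11, −0.09 and −0.27 in *Il10*-/- mice, without overlap. All 4 of the 12-week-old C57 mice were above every other mouse, though the lowest, at 0.25, was close to the highest of the others, at 0.17. Within this group *Krt16* fell from mouse to mouse as the shared value of the array rose. *Krt16* was lower by 0.78 ± 0.14 in *Il10*-/- than in C57 mice at 12 weeks (1.71-fold, adjusted p = 0.00169), against −0.16 ± 0.15 at 7 weeks. The difference between ages was −0.62 ± 0.21 (adjusted p = 0.13). In C57 mice it rose by 0.65 ± 0.14 from 7 to 12 weeks (1.57-fold, adjusted p = 0.0367), a call that was lost in 11 of 27 alternatives with the same call rule, among them leaving out any C57 mouse other than mouse 66 (adjusted p of 0.0506 to 0.127). Within *Il10*-/- mice the change of *Krt16* was 0.03 ± 0.15. *Krt16* did not move with *Krt6a*, whose C57 mice had a difference of 0.003 ± 0.10 between ages.

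*Krt15* and *Krt14* are keratins of basal cells. At 12 weeks *Krt15* had ratios of 0.05, −0.26, −0.12 and 0.04 in C57 and 0.08, 0.14, 0.35 and 0.59 in *Il10*-/- mice, without overlap, and its difference of 0.36 ± 0.11 had an adjusted p of 0.041 below the fold threshold. At 7 weeks it differed by −0.10 ± 0.11. *Krt14* had ratios of 0.52, 0.90, 0.32 and 0.56 in C57 and 0.11, 0.29, 0.41 and 0.13 in *Il10*-/- mice at 12 weeks, which overlapped, and differed by −0.34 ± 0.11 (adjusted p = 0.0695). At 7 weeks it differed by 0.02 ± 0.12. Neither gene passed both thresholds between genotypes, nor did *Krt5*, the usual partner of keratin 14.

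**Figure D3:**
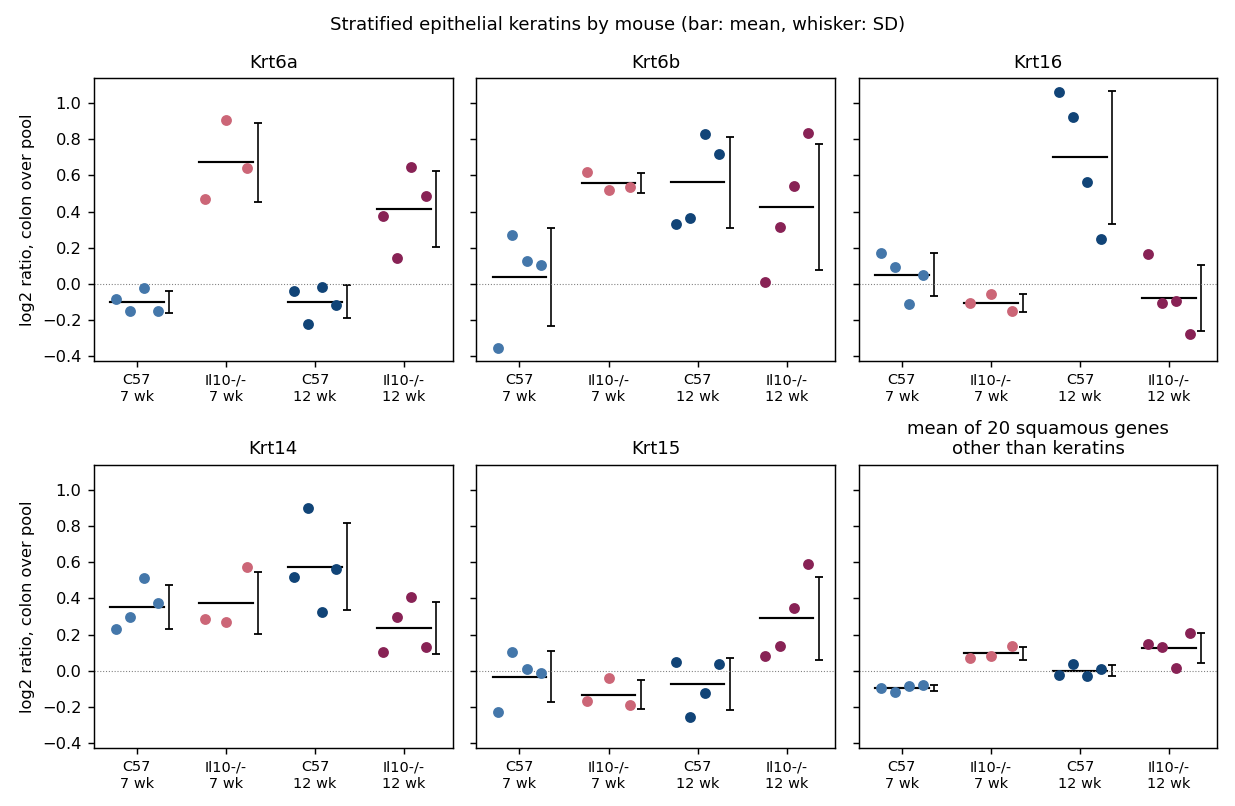
Log2 ratio of colon over pool (y axis) of 5 stratified epithelial keratins and the mean of 20 other genes of squamous epithelium in each of the 15 mice, by group (x axis); bars are group means and whiskers SD. *Krt6a* is above 0 in all 7 *Il10*-/- mice and below 0 in all 8 C57 mice, and *Krt16* is highest in the 12-week-old C57 mice.

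Squamous epithelium, which makes stratified keratins, lines the anal canal next to the colon. The mean of 20 squamous genes other than keratins was −0.12 to −0.08 in C57 and 0.07 to 0.14 in *Il10*-/- mice at 7 weeks, and −0.03 to 0.04 in C57 and 0.01 to 0.21 in *Il10*-/- mice at 12 weeks. Of the 20, 2 rose at 7 weeks, *Sprr1a* (a protein of the cornified envelope, 1.01 ± 0.23, adjusted p = 0.0128) and *Anxa8* (an annexin, 1.57 ± 0.29, adjusted p = 0.00273). At 12 weeks 2 rose, *Anxa8* (0.88 ± 0.27, adjusted p = 0.0469) and *Ly6d* (a surface protein of keratinocytes and some B cells, 0.79 ± 0.13, adjusted p = 9.68e-04). No member passed the thresholds other than those named for each age. *Trp63*, *Ivl* and *Lor*, picked after their values were seen, differed by −0.10 ± 0.07, −0.06 ± 0.10 and −0.05 ± 0.07 at 7 weeks. At 12 weeks they differed by 0.06 ± 0.06, 0.10 ± 0.10 and −0.12 ± 0.06. The median genotype difference of the 20 genes was 0.04 at 7 weeks (−0.47 to 1.57) and 0.05 at 12 weeks (−0.12 to 0.88). Within C57 mice the mean of this list was higher in every mouse of 12 weeks than in every mouse of 7 weeks, as were the *Krt16* values. The median change of the 20 genes with age in C57 mice was 0.005, with 0 past the thresholds and a largest rise of 0.82. At 12 weeks the highest values of the list mean were in *Il10*-/- mice. The part of squamous epithelium in the *Krt6a* and *Krt16* values was not tested.

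Other cells of the colon wall also differed between the groups. The mean of 7 immune genes was −0.32 to −0.16 in C57 and 0.14 to 0.47 in *Il10*-/- mice at 7 weeks, and −0.29 to −0.11 and 0.39 to 0.95 at 12 weeks. *S100a8* and *S100a9*, of neutrophils, rose at both ages, *S100a9* by 2.00 ± 0.37 (adjusted p = 0.00325) and 3.33 ± 0.35 (adjusted p = 1.2e-05). No other immune gene passed both thresholds, and the median difference of the 7 genes was 0.03 at 7 weeks and 0.33 at 12 weeks. The mean of 7 smooth muscle genes was −0.05 to 0.64 in C57 and −0.31 to 0.34 in *Il10*-/- mice at 12 weeks, where *Myh11* fell by 0.87 ± 0.21 (adjusted p = 0.0132) and *Cnn1* by 0.85 ± 0.23 (adjusted p = 0.0269). The part of these cells in the keratin values was not tested.

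Keratins of hair and other sites had medians over the 15 mice of −0.23 to 0.23, with all 18 within 0.25 of 0. The limit on ratios near 0 given for the stratified keratins holds here too. Values of single mice ran from −0.49 (*Krt34*) to 0.60 (*Krt87*), and no gene of this class passed the thresholds in any of the 5 comparisons. At an unadjusted p under 0.05 there were 3 of the 18 at 7 weeks and 1 at 12 weeks, against the shares of all genes given above. The largest differences between genotypes at either age were those of *Krt88* (−0.24 ± 0.11, adjusted p = 0.21), *Krt36* (0.23 ± 0.08, adjusted p = 0.0879) and *Krt86* (−0.21 ± 0.09, adjusted p = 0.16), all at 7 weeks. *Krt36*, a hair keratin also found in the papillae of the tongue, was above 0 in every mouse on average over its features, but the features disagreed. One had 0.07 to 0.22 in the 7-week-old *Il10*-/- mice and 0.07 to 0.19 in the C57 mice of that age, with a difference of −0.02 ± 0.08. The other had 0.44 to 0.77 and −0.04 to 0.26, with a difference of 0.49 ± 0.14 (adjusted p = 0.0542 in the fit of all features).

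Agreement between features of a gene differed with the gene. The features of *Krt7* ran from 0.46 to 1.49 and from 0.24 to 1.12 and ranked the mice much alike. Those of *Krt13* ran from 0.55 to 1.12 and from −0.06 to 0.32, and those of *Krt10*, a keratin of the upper epidermis, from −0.20 to 0.40 and from −0.53 to −0.18, with no common order of the mice. A keratin whose features lie near 0 and disagree has no level that can be read here.

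**Figure D4:**
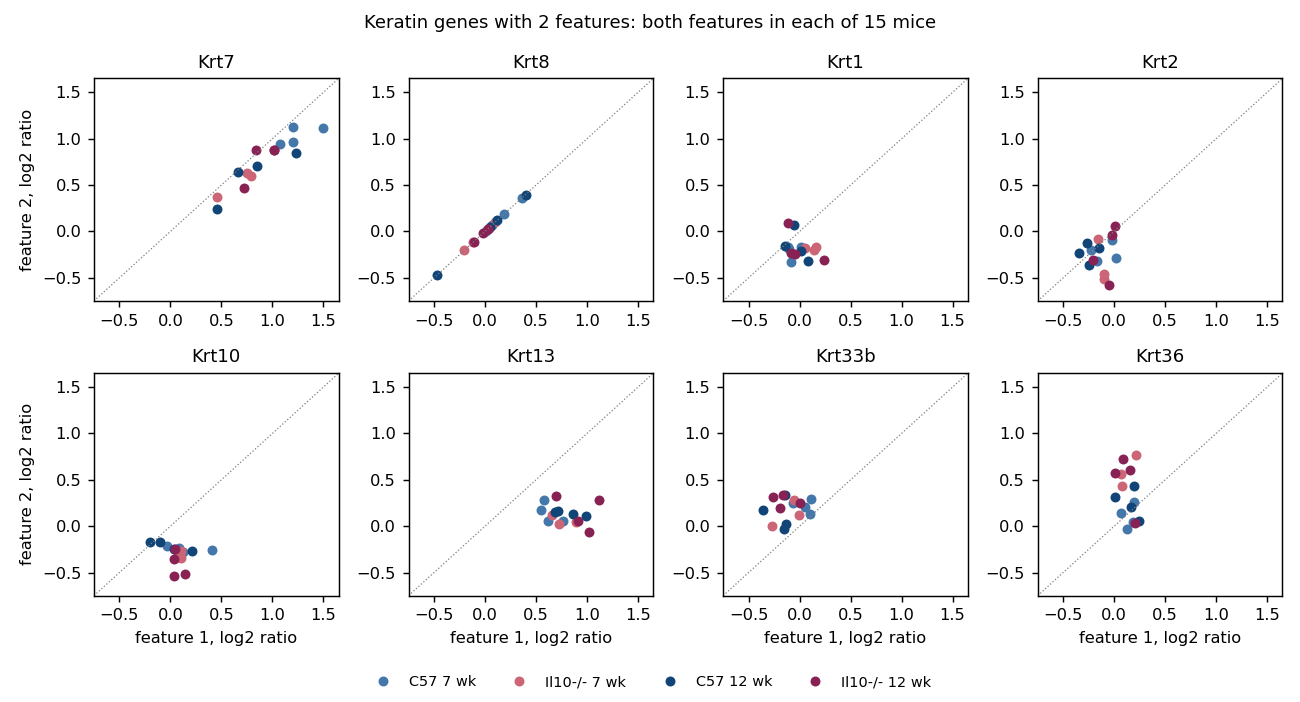
Log2 ratio of the 1 feature (x axis) against the other (y axis) for the 8 keratin genes with 2 features, 1 point per mouse coloured by group, with the line of equality dotted. The features of *Krt8* coincide at the shared value and those of *Krt7* rise together from 0.24 to 1.49, while *Krt10*, *Krt13* and *Krt36* have features at different levels.

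With age, 2 of the 40 keratins passed the thresholds within C57 mice, *Krt16* (higher) and *Krt23* (lower at 12 weeks), or 5%, where 0.404% of all genes did (0.231% higher, 0.173% lower). At an unadjusted p under 0.05 there were 8 keratins, against 13.2% of all genes. Both calls were lost when any of 5 of the 8 C57 mice was left out (mouse 44, 45, 46, 64 or 65), with adjusted p of 0.0506 to 0.127 for *Krt16* and 0.0533 to 0.103 for *Krt23* in those fits. Within *Il10*-/- mice 0 of 40 passed in limma, against 0.419% of all genes, and 2 had an unadjusted p under 0.05, against 13.7%. The larger was *Krt15*, with a difference of 0.42 ± 0.11 (adjusted p = 0.0885). For the difference between ages of the genotype differences, 0 of 40 keratins passed in limma, against 1.15% of all genes, and 11 had an unadjusted p under 0.05 (7 positive, 4 negative), against 16.9%. The age comparisons share their groups with the comparisons of genotypes, so that the high *Krt23* of 7-week-old C57 mice and the high *Krt16* of 12-week-old C57 mice enter both.

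RNAs of proteins that anchor keratin filaments were measured from a list of 23 genes of desmosomes, hemidesmosomes and linkers. *Pkp3*, a plakophilin of the desmosome plaque, rose at 7 weeks by 0.59 ± 0.11 (adjusted p = 0.00347), and no other member passed both thresholds at either age. At 7 weeks *Dsp* (desmoplakin, which ties keratin to the desmosome) differed by 0.30 ± 0.07 (adjusted p = 0.021), *Evpl* (envoplakin) by 0.46 ± 0.11 (adjusted p = 0.017) and *Perp* (a desmosome membrane protein) by 0.42 ± 0.09 (adjusted p = 0.009), each below the fold threshold. At 12 weeks they differed by −0.14 ± 0.07, 0.16 ± 0.10 and −0.17 ± 0.08. The list median was 0.08 at 7 weeks and 0.01 at 12 weeks (−0.01 and −0.0005 over all genes). The list mean was 0.25 to 0.30 in C57 and 0.37 to 0.47 in *Il10*-/- mice at 7 weeks, and 0.32 to 0.41 and 0.31 to 0.45 at 12 weeks. Of 18 other intermediate filament genes, such as vimentin, desmin and the lamins, 0 passed the thresholds in limma at 7 or at 12 weeks. At 12 weeks the differences of these genes ran from −0.53 to 0.36, with a median of 0.005. The neurofilament gene *Nefm* differed by 0.36 ± 0.10 at that age (adjusted p = 0.041), below the fold threshold.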

How the data were processed

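Colon RNA of 15 mice was measured on 2-colour Agilent arrays, with the sample in Cy3 and the pooled reference in Cy5. The authors used limma to normalise each array by loess with no background correction and deposited log2 ratios, which were used as they are. Groups were taken from the sample titles, since the characteristics name 1 strain and 1 age for all arrays. Array scanner intensities were not used here, so no filter on dim or saturated spots was made, and 15 arrays limit the precision.

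Of 44290 features, 42128 were measured in 2 or more mice of each group, and 32016 of these list 1 gene. A gene took the mean of its features. Tests used limma 3.58.1 (R 4.3.3, statmod 1.5.0), fitting 4 group means by lmFit with 11 residual degrees of freedom, then eBayes, with Benjamini-Hochberg adjustment over 19076 genes. A gene passed when its change was at least 1.5-fold with an adjusted p under 0.05, as in the study's methods. Values are log2 differences ± SE. Each p-value sets a difference of group means against the spread between mice within the groups, as moderated by eBayes. Between genotypes, rose and fell mean higher and lower in *Il10*-/- than in C57 mice of the same age. Summaries used Python 3.11.15, pandas 2.3.3, numpy 2.4.6 and matplotlib 3.10.9. Gene names came from the platform annotation, and order and promoters from RefSeq. Closely similar genes, such as *Krt6a* and *Krt6b* or *Krt33a* and *Krt33b*, may share signal.

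The keratins and all lists were chosen with earlier results of these data known. Named keratins were all 6 simple ones, every other one past the thresholds in any comparison, and the 3 further stratified and 3 hair keratins with the largest genotype difference, and of the other lists the members past the thresholds, at most 4 a comparison. *Krt5*, *Krt10*, *Krt13*, *Krt34*, *Krt75*, *Krt87* and the list members named without passing were added after their values were seen. The lists held genes of epithelium, surface colonocytes, crypt base, goblet, enteroendocrine and tuft, squamous, mesothelial, smooth muscle and immune cells, desmosomes and other intermediate filaments. In surface colonocytes 3 of 10 genes rose and 1 fell at 7 weeks, and 3 fell at 12 weeks. In crypt base cells 1 of 8 rose at 7 weeks and 0 passed at 12 weeks. In mesothelium 0 of 6 passed at either age (limma). Over all genes 2.42% passed at 7 weeks and 2.52% at 12 weeks.

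Tested on simulated data with 18716 genes, the fit called 42% of 1.5-fold and 96% of 2-fold changes at 7 weeks, and 40% and 100% at 12 weeks. A planted 1.5-fold change lies at the call threshold itself, so many estimates fall below it at any precision, and that share does not measure sensitivity. The simulated noise was independent between genes, so shifts shared by the genes of an array were not simulated. Alternatives were array weights, robust eBayes, fits of the compared groups alone, centring, scaling or quantile normalisation of the arrays, 1 feature (the most variable) per gene, no genes with missing values, no genes of low variance, other call rules, leaving out each mouse, and leaving out features at a value shared by 5 or more. After seeing the data, leaving out features at the commonest value, single features and the shared value as a covariate were added.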

Additional observations from a re-analysis of the deposited data

Results flagged for a closer look

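*Krt88*, of the hair and other class, had a ratio of 0.23 in the 7-week-old C57 mouse 43, while the other 3 mice of its group had −0.26 to −0.23. This was the only such mouse in 42 checks of 14 keratins in the 3 groups of 4 mice, where chance flags about 1 in 20.

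No keratin had a genotype difference that changed past the thresholds between the ages. Of the genes of the other lists, 4 did (12-week minus 7-week difference, limma), where 1.15% of all genes did. In surface colonocytes these were 3 of 10, *Aqp8*, a water channel, at −5.02, *Slc26a3*, a chloride exchanger, at −2.19 and *Car4*, a carbonic anhydrase, at −1.02. In the desmosome list it was 1 of 23, *Perp*, at −0.59. *Aqp8* had group means of −2.17 in C57 and 0.63 in *Il10*-/- mice at 7 weeks and 1.86 and −0.34 at 12 weeks. The part of surface colonocytes in the keratin values was not tested.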

How the results depend on the processing

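No keratin difference past the thresholds reversed under any alternative run. *Krt6a* and *Krt23* at 7 weeks and *Krt16* at 12 weeks passed under all alternatives other than the stricter fold rules, with ranges of 0.66 to 0.87, −0.84 to −0.60 and −0.93 to −0.65 and adjusted p of at most 0.00292, 0.0212 and 0.0209. A fold of 2, or treat against 1.5-fold, gave 0 keratins at 7 weeks, at 12 weeks and within C57 mice, where 131, 189 and 26 (fold of 2) or 62, 132 and 7 (treat) of 19076 genes passed. With no fold threshold 3 passed at 12 weeks (*Krt6a*, *Krt15*, *Krt16*). For the difference between ages, array weights and the shared value as a covariate (added after seeing the data) each gave 2 (*Krt7*, *Krt23*) in place of 0, while the count over all genes went from 219 to 274 and 275. Within C57 mice, 1 passed with median centring (*Krt16*), 0 with only the groups compared, and 1 with the covariate (*Krt23*), in place of 2.

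Leaving out 1 mouse gave 1 to 2 keratins at 12 weeks (2 without mouse 94), 0 to 2 for the difference between ages (*Krt7* and *Krt23* without mouse 63, *Krt16* without mouse 66, *Krt7* without mouse 95) and 0 to 2 with age in C57 mice (*Krt16* alone without mouse 66, *Krt23* alone without mouse 63, 43, 94 or 77, 0 without mouse 44, 45, 46, 64 or 65). Over all genes the same fits gave 456 to 560 at 12 weeks, 136 to 262 for the difference between ages and 36 to 96 with age in C57 mice. *Krt7* at 7 weeks also passed with scale (−0.64) and quantile normalisation (−0.61). The cause of these changes was not tested. No paired analysis was possible because mouse numbers are not shared between groups. Without scanner intensities, what signal over background limits could not be measured.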
